A study of Mus musculus with 6 samples.

Results

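Cycling C1q macrophages were described in mammary tissue of the C3(1)-Tag mouse. They were chosen cell by cell on measured UMI counts. A cell had to carry at least 2 of the 3 complement genes C1qa, C1qb and C1qc, at least 1 UMI each of Csf1r and Lyz2, no UMI of Epcam or Cd3e, and at least 2 of the 6 cycle genes Top2a, Mki67, Birc5, Cenpf, Ube2c and Ccnb1. Of 23835 barcodes, 22244 had at least 200 detected genes and under 10% mitochondrial UMIs, 337 of these passed the macrophage part of the rule, and 61 of the 337 were cycling. The comparison cells were the 223 macrophages of the same gate with none of the 6 cycle genes, here called non-cycling, and 53 cells with exactly 1 cycle gene fell between. The 6 libraries came from female mice of the FVB/NJ background that carry the SV40 large T antigen under the C3(1) promoter, and no group lacked the transgene. Whole glands of 5-week-old mice gave the 2 Prepuberty libraries, whole glands of 14-week-old mice, at the stage of ductal carcinoma in situ, the 2 DCIS libraries, and tumours that could be palpated in mice older than 18 weeks the 2 Tumor libraries. The labels do not say whether the libraries of a state came from different animals, so a spread between them may be technical. For the Tumor state the study describes separate, distinct tumours.

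Macrophages of the gland and of tumours descend from embryonic precursors and from blood monocytes, and differentiated macrophages can still divide. Signalling through Csf1r, the receptor for the growth factors Csf1 and Il34, maintains them. Of the genes that chose the cells, Top2a untangles DNA strands, Mki67 coats mitotic chromosomes, Birc5 (survivin) serves in the chromosomal passenger complex, Cenpf binds kinetochores, Ube2c works with the anaphase-promoting complex, and Ccnb1 is the mitotic partner of Cdk1. C1qa, C1qb and C1qc encode the chains of complement C1q, made mainly by tissue macrophages.

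The 6 cycle genes are classed with the genes switched on late in the cycle, whose promoters are known for CCAAT boxes and for the TTTGAA element. The 120 bases before the annotated start of each are printed, with that of C1qb for contrast, because these genes define the cells. Sequences are RefSeq's for GRCm38.p6, written 5′ to 3′ on the strand of the gene. Capitals mark CCAAT and TTTGAA on either strand (ATTGG and TTCAAA on the other), and these motifs did not overlap.
Top2a, chr11:99024190-99024309, minus strand: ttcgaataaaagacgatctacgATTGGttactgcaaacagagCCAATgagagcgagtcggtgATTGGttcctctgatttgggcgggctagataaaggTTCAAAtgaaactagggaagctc
Mki67, chr7:135716380-135716499, minus strand: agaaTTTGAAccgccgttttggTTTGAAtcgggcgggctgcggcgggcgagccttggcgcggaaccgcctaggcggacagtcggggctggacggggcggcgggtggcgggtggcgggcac
Birc5, chr11:117849117-117849236, plus strand: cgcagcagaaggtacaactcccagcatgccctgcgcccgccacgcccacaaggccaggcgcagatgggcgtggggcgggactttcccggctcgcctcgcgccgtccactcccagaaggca
Cenpf, chr1:189688087-189688206, minus strand: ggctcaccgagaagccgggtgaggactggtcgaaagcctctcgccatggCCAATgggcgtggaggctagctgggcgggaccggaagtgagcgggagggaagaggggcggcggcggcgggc
Ube2c, chr2:164769809-164769928, plus strand: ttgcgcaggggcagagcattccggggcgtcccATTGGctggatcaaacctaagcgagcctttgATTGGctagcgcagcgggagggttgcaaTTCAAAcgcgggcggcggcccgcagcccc
Ccnb1, chr13:100786487-100786606, minus strand: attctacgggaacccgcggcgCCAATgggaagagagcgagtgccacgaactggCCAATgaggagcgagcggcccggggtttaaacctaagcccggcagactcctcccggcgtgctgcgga
C1qb, chr4:136886201-136886320, minus strand: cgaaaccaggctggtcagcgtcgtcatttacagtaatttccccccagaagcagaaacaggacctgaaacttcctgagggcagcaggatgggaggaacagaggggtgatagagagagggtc
Within 250 bases before the start, CCAAT was found for 5 of the 6 genes and TTTGAA for 3 of the 6, with 6 CCAAT matches each for Top2a and Ube2c. Birc5 and C1qb held neither in that window. Over all 27025 genes with a promoter sequence, 34.5% held CCAAT and 16.3% held TTTGAA in a window of the same length. A match of letters is a description and not a bound site.

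The share of cycling cells among gated macrophages differed widely between libraries. It was 3 of 13 cells (23.1%, Wilson 95% interval 8.18 to 50.3%) in Prepuberty 1 and 0 of 7 in Prepuberty 2, which allows a share of up to 42.9%. It was 5 of 59 (8.47%, 3.67 to 18.4%) in DCIS 1 and 1 of 48 (2.08%, 0.369 to 10.9%) in DCIS 2. It was 29 of 149 (19.5%, 13.9 to 26.6%) in Tumor 1 and 23 of 61 (37.7%, 26.6 to 50.3%) in Tumor 2. Both tumour libraries lay above both DCIS libraries, while the prepubertal shares spanned most of that range on few cells. The mean share was 23.3 percentage points higher in Tumor than in DCIS (exact permutation test, two-sided, p = 0.33), which is the smallest p that 2 libraries against 2 allow. In the same exact permutation test the gap was 17.0 points for Tumor over Prepuberty (p = 0.667) and −6.26 points for DCIS against Prepuberty (p = 1), and none of the 3 contrasts could have passed a threshold of 0.05. Leaving out Prepuberty 1 turned the last gap to 5.28 points. The gap of Tumor over Prepuberty was 5.51 points without Prepuberty 2 and 28.6 without Prepuberty 1, and that of Tumor over DCIS was 14.2 points without Tumor 2. Intervals and limits cover counting error only.

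In 4 of the 5 libraries with cycling cells these carried more UMIs at the median than the non-cycling cells, and depth alone raises the number of genes detected in a cell. The median UMI count of cycling against non-cycling cells was 9946 against 6167.5 in Tumor 1, 13247 against 8575.5 in Tumor 2, 14633 against 8252 in DCIS 1 and 8875 against 5138 in Prepuberty 1. The 1 cycling cell of DCIS 2 had 4687 UMIs, below the non-cycling median of 6601.5. With every cell thinned to 2500 UMIs the share was 16.7% in Prepuberty 1, 0% in Prepuberty 2, 3.45% in DCIS 1, 2.22% in DCIS 2, 11.0% in Tumor 1 and 26.2% in Tumor 2, after 1, 0, 1, 3, 3 and 0 shallower cells were left out. The order of the tumour and DCIS libraries at 2500 UMIs was the same as without thinning. At 1500 UMIs the share was 15.4% in Prepuberty 1 and 0% in Prepuberty 2, DCIS 1 and DCIS 2. It was then 8.78% in Tumor 1 and 16.4% in Tumor 2, and the gap of Tumor over Prepuberty was 4.90 points.

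**Figure D1:**
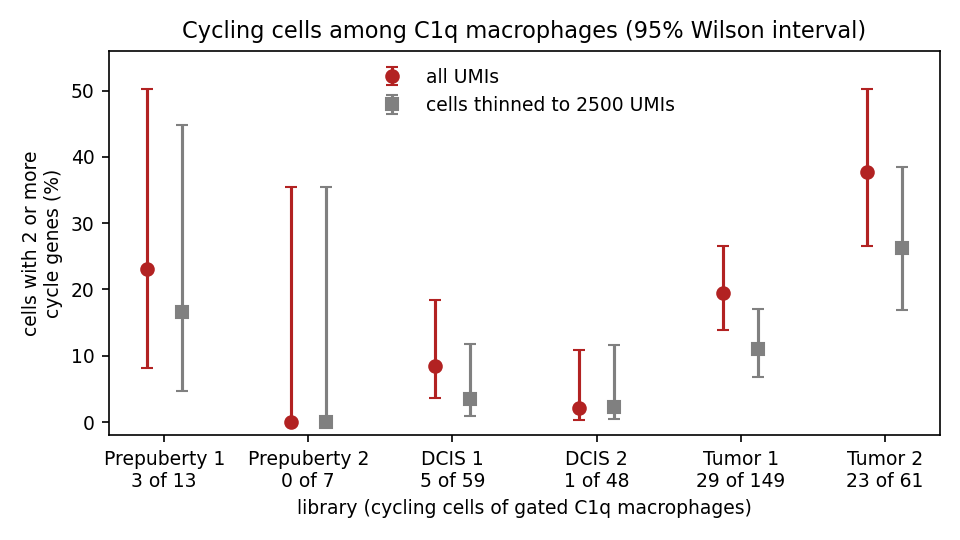
Share of gated C1q macrophages with 2 or more cycle genes (y axis, percent) in each of the 6 libraries (x axis), as counted (red circles) and after thinning each cell to 2500 UMIs (grey squares), with 95% Wilson intervals. Tumor 2 reached 37.7% and Tumor 1 19.5%, the DCIS libraries lay at 8.47% and 2.08%, and the prepubertal intervals were wide.

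Free cycle RNA in the suspension can also give UMIs in cells that do not divide. Neutrophils, which no longer divide, showed 2 or more cycle genes in 0 of 32 cells, which allows a share of up to 9.38%, but their median depth was only 910 UMIs against 10577 in the cycling macrophages. Among all other kept cells the share with 2 or more cycle genes was 12.8%, 0.806%, 29.2%, 14.7%, 69.7% and 62.7% from Prepuberty 1 to Tumor 2, so cycle RNA was most common in the tumour libraries too. For every 100 UMIs of the 6 cycle genes, cycling macrophages carried 3.57 UMIs of Krt8 and Krt18 in Tumor 1 and 1.51 in Tumor 2, against 223 and 36.8 in Epcam-positive cells with 2 or more cycle genes and 43.7 and 10.5 in such cells with neither Epcam nor C1q. The T antigen gave 0.549 and 0.567 in the macrophages against 17.6 and 2.70 in the Epcam-positive and 6.88 and 2.59 in the other cells. Col1a1, Col3a1 and Sparc gave 102 and 12.3 in the macrophages, mostly from a pair of mixed cells described below (3.93 and 1.18 without them), against 30.3 and 31.0 in the Epcam-positive and 572 and 90.2 in the other cells. The gate takes cells with cycle UMIs and without Epcam, which itself lowers the epithelial values, and the part of free cycle RNA in the shares was not tested.

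The macrophage label was checked against genes the rule did not use. Cd68, a lysosomal glycoprotein of macrophages, had a UMI in 28 of 29 cycling cells of Tumor 1 and 20 of 23 of Tumor 2. Fcgr1, the high-affinity IgG receptor, was seen in 24 of 29 and 19 of 23, and Adgre1, which encodes F4/80, in 20 of 29 and 18 of 23. Mrc1, the mannose receptor, was seen in 14 of 29 and 10 of 23 cycling cells and in 32 of 92 and 16 of 30 non-cycling cells, and Mertk, a receptor for dying cells, in 5 of 29 and 10 of 23 against 13 of 92 and 9 of 30, so most cells of either class in Tumor 1 lacked a UMI of these. In Epcam-positive cells Adgre1 was seen in 1.66% and 0.837% and Cd68 in 25.4% and 9.04%. The cycle label was checked with Cdk1, the mitotic kinase, which had a UMI in 16 of 29 and 14 of 23 cycling cells and in 7 of 92 and 1 of 30 non-cycling cells. Ccna2, the cyclin A of S phase and mitosis, had one in 8 of 29 and 15 of 23 against 2 of 92 and 2 of 30. 

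A few cells carried RNA of other cell types. In Tumor 1, 332 of the 342 fibroblast-marker UMIs of the cycling cells sat in 1 cell of 18424 UMIs, which held 131 Col1a1 and 145 Sparc UMIs. In Tumor 2, the deepest cell, with 42156 UMIs, held 39 of 44 epithelial-marker UMIs, 59 Sparc UMIs and 3 T antigen UMIs, and another cell held 143 of 146 neutrophil-marker UMIs. A further cell of Tumor 1 held 10 of the 14 T and NK cell UMIs. The first 2 of these 4 cells, here called mixed cells, were the only cycling cells with 5 or more UMIs over Krt8, Krt18, Col1a1, Col3a1, Cd79a, Cd3g and Pecam1, and results below are also given without them. The same limit removed 1 non-cycling cell each from Tumor 1 and DCIS 1. Other markers were at low levels. Of the 10 epithelial markers 9 had a UMI in the cycling cells of Tumor 1, 35 UMIs over 21 of 29 cells with at most 4 in a cell, and they summed to 116 CPM (UMIs scaled to a total of 1000000) against 157 CPM in the non-cycling cells. In Tumor 2 they summed to 131 against 55.3 CPM, and all but 5 of the 44 cycling UMIs were those of the mixed cell. The 7 B cell markers summed to 73.0 against 93.1 CPM and 38.6 against 55.3 CPM, in 7 of 29 and 5 of 23 cycling cells. The 6 endothelial markers summed to 6.64 and 2.97 CPM in the cycling cells of Tumor 1 and 2, and the 6 erythroid and platelet markers to 3.32 and 2.97 CPM. The part of these UMIs in the results was not tested beyond the comparisons without the mixed cells.

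The genes that chose the cells are given as values without a test. Top2a stood at 206 CPM in the cycling cells of Tumor 1 and 496 CPM in Tumor 2, and Mki67 at 126 and 357 CPM. Birc5 stood at 372 and 312 CPM, Ube2c at 332 and 178, Cenpf at 96.2 and 187, and Ccnb1 at 76.3 and 41.6. Among these genes the highest CPM was that of Birc5 in Tumor 1 and of Top2a in Tumor 2. A Birc5 UMI was seen in 93.1% of the cycling cells of Tumor 1 and 87.0% of those of Tumor 2. For Mki67 the shares were 55.2% and 87.0%, and for Top2a 72.4% and 82.6%. Birc5 was thus not seen in fewer cycling cells than Mki67 or Top2a in either library. C1qa stood at 6749 CPM in cycling against 7171 CPM in non-cycling cells of Tumor 1, and at 3813 against 5177 CPM in Tumor 2. Csf1r was at 332 against 382 CPM in Tumor 1 and 345 against 379 CPM in Tumor 2. Lyz2, which encodes lysozyme, was at 14759 against 14911 CPM in Tumor 1 and at 9502 against 20189 CPM in Tumor 2.

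Only Tumor 1 and Tumor 2 held 10 or more cycling cells, so genes were compared between 52 cycling and 122 non-cycling cells of these 2 libraries. UMIs were summed per library and class and tested with edgeR's quasi-likelihood F test with the library as a block. Of 4124 genes tested outside the rule, 238 were higher in cycling cells (5.77%) and 187 lower (4.53%) at an adjusted p under 0.05, and the median log2 fold change of all of them was −0.01. With library totals in place of TMM scaling the median shifted to 0.15 and the split became 226 higher and 63 lower. With the mixed cells left out it was 148 higher, all of them among the 238, and 86 lower, 84 of them among the 187. With DESeq2 it was 38 and 19. The fit has 1 residual degree of freedom and its estimate of the spread was the same for every gene (infinite prior degrees of freedom). The adjusted p-values and SEs below rest on that pooled spread, and the SEs do not measure the spread between the 2 libraries. Without the mixed cells the prior degrees of freedom were 10.7, so an adjusted p can rise there while the fold change stays about the same, and both are given. Leaving out the highest doublet scores removed 1 non-cycling cell of the fit and no cycling cell, and gave 121 higher and 47 lower genes with prior degrees of freedom of 6.74. Without the library block no gene was called by edgeR, with 206 higher and 92 lower at an unadjusted p under 0.05.

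**Figure D2:**
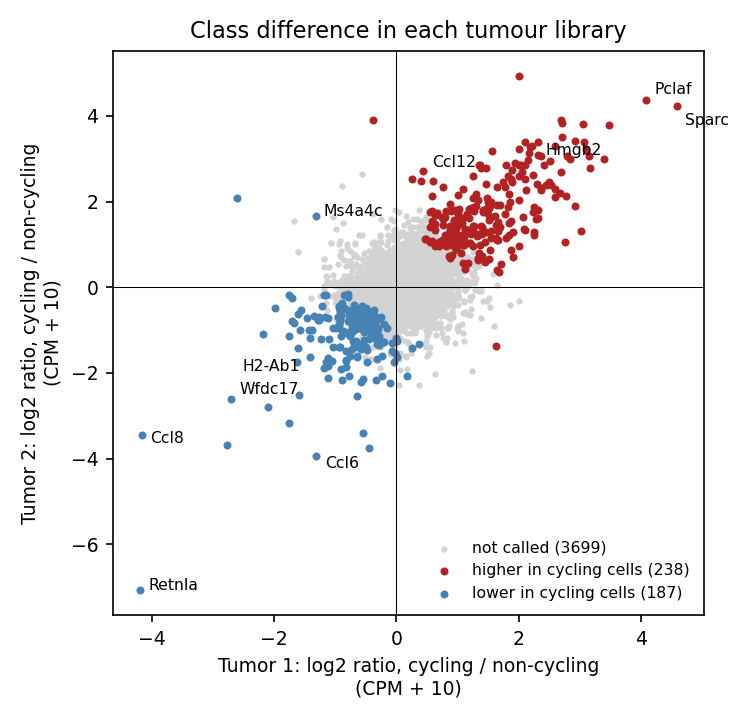
Log2 ratio of cycling to non-cycling cells (CPM + 10) for each of 4124 tested genes in Tumor 1 (x axis) and Tumor 2 (y axis), with 238 genes called higher in red, 187 called lower in blue and the others in grey. Of the 425 called genes 416 changed in the same direction in both libraries as in the fit, and Ms4a4c is an exception. The fit used both libraries, so this count is a description and not a separate check.

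Genes of DNA replication, nucleotide supply and mitosis rose in the cycling cells. The cells were chosen on 6 genes of the same process, so this describes how far the rest of the programme moved with them. Of 46 genes of the mitosis and spindle list 27 passed the filter on low counts and 27 rose, of 38 of the DNA replication list 18 passed and 17 rose, of 17 of nucleotide synthesis 10 passed and 7 rose, and of 22 of chromatin and histones 19 passed and 17 rose. A gene that is near 0 in non-cycling cells passed the filter only through its cycling sums and could hardly fail to rise. Of the genes that passed, 13, 1, 1 and 2 had 3 or fewer UMIs in the non-cycling cells, so these counts are a description. Without the mixed cells the counts were 27 of 27, 11 of 18, 6 of 10 and 16 of 19, and with DESeq2 they were 17, 0, 4 and 8. With depth-matched non-cycling cells 10 of 17 tested replication genes and 5 of 10 nucleotide genes were called.

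Among mitotic genes, Tuba1b and Tubb5, which encode tubulins, were the most abundant. Tuba1b stood at 1487 CPM in cycling against 345 CPM in non-cycling cells of Tumor 1 and at 1109 against 348 CPM in Tumor 2. Its log2 difference was 1.77 ± 0.22 (SE of the fit over 2 libraries, from the pooled spread). Cks1b, a small partner of cyclin-dependent kinases, was at 342 against 31.0 CPM and 452 against 39.5 CPM (3.34 ± 0.29). Both genes were higher in the cycling cells of both libraries.

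Of the replication genes, Mcm3, a subunit of the replicative helicase, was at 83.0 against 11.4 CPM in Tumor 1 and 134 against 19.8 CPM in Tumor 2 (2.65 ± 0.42). Pcna, the sliding clamp of the polymerases, was at 76.3 against 40.8 CPM and 202 against 31.6 CPM (1.55 ± 0.34), so the larger gap was in Tumor 2. Lig1, which joins lagging-strand fragments, rose by 3.01 ± 0.45, and Slbp, which binds histone mRNA, by 0.97 ± 0.34. The adjusted p of Slbp was 0.039, and without the mixed cells it was 0.13 (0.87). Rfc2, a clamp-loader subunit, was the member that did not pass (0.11, adjusted p = 0.93).

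For nucleotide synthesis, Tk1, the thymidine kinase of S phase, stood at 129 against 3.27 CPM and 134 against 7.90 CPM (4.56 ± 0.51). Rrm1, the large subunit of ribonucleotide reductase, rose by 3.47 ± 0.50, Dut, which removes dUTP, by 2.35 ± 0.35 and Dtymk, which makes dTDP, by 1.10 ± 0.32. Among chromatin genes H2afz, the histone variant H2A.Z, was at 2930 against 850 CPM and 2797 against 846 CPM (1.63 ± 0.21). Hmgb2, a DNA-bending protein, was at 866 against 167 CPM and 981 against 107 CPM (2.58 ± 0.24). Hmgb1 and Ran rose by less, 0.97 ± 0.22 and 1.01 ± 0.22.

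Among the largest rises outside the cycle lists, Pclaf, a PCNA-binding factor encoded at chr9:65890237-65903266 (plus strand, GRCm38, GENCODE M21), stood at 408 against 14.7 CPM in Tumor 1 and 443 against 11.9 CPM in Tumor 2 (4.76 ± 0.34, adjusted p = 9.6e-42, and 3.1e-06 without the mixed cells). It was seen in 23 of 29 and 21 of 23 cycling cells, against 6 of 92 and 2 of 30 non-cycling cells, although the rule did not use it. Spc24 of the kinetochore rose by 3.86 ± 0.49 and Asf1b, a histone chaperone, by 3.96 ± 0.56. The condensin subunit Ncapg had 26 UMIs in cycling cells and none in non-cycling cells, at least 11.8-fold higher against a floor of 3 counts over the group. For genes with 3 or fewer non-cycling UMIs the ratio of pooled levels was 19.0 for the spindle checkpoint gene Mad2l1 (95% counting interval 6.07 to 95.8), 39.3 for Cenph of the kinetochore (6.52 to 1606), 17.2 for the kinesin Kif15 (5.45 to 87.0), 18.3 for Plk4, the kinase of centriole duplication (4.60 to 159), and 19.9 for the histone gene Hist1h2ak (6.38 to 100.1). Ncapg and these genes passed the filter only through their cycling sums and could hardly fail to rise. The intervals cover counting error of the pooled UMIs and not the spread between libraries. Histone genes have near-identical copies, and reads of Hist1h2ak may be split among them.

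Sparc, a matrix glycoprotein, was called higher (5.49 ± 0.39), but 145 of its 152 UMIs in Tumor 1 and 59 of its 60 in Tumor 2 came from the mixed cells. Without those cells it was too low to be tested.

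Genes that restrain or steer the cycle moved less uniformly. Of 18 tested genes of this list 5 rose and 1 fell, with a median of 0.23, and with DESeq2 none was called. With library totals 3 rose and none fell, and leaving out the mixed cells gave 3 rises and 1 fall. The kinase inhibitor Cdkn2c was at 69.7 against 1.63 CPM in Tumor 1 and 68.4 against 7.90 CPM in Tumor 2 (4.02 ± 0.61). The phosphatase Cdkn3 rose by 3.84 ± 0.65, the inhibitor Cdkn2d by 1.57 ± 0.38 and the kinase Wee1 by 1.66 ± 0.57. Cdkn2c had 1 and 2 UMIs in the non-cycling cells of Tumor 1 and 2, and Cdkn3 had 3 and 0. Both passed the filter only through their cycling sums and could hardly fail to rise. The adjusted p of Wee1 was 0.036, and 0.13 without the mixed cells, where its fold change was 1.65. Cdkn2a, at 56.4 against 45.8 CPM and 184 against 23.7 CPM (1.31 ± 0.35), rested on the mixed cell of Tumor 2, which held 57 of its 62 UMIs there, and without the mixed cells its value was −0.20 (adjusted p = 0.87). Btg1, an antiproliferative gene, fell by 0.64 ± 0.22. Cdkn1a, the inhibitor p21, was at 338 against 528 CPM and 172 against 194 CPM, and Cdk4 at 113 against 98.0 CPM and 211 against 83.0 CPM. Neither passed the test.

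Of 12 tested regulators of macrophage growth 4 fell and none rose, with a median of −0.39. The zinc-finger factor Klf4 was at 119 against 258 CPM in Tumor 1 and 20.8 against 90.9 CPM in Tumor 2 (−1.51 ± 0.30, adjusted p = 1.5e-05). Klf2, of the same family, fell by 0.96 ± 0.25 and Cebpb, a factor of monocytic differentiation, by 1.26 ± 0.33. The adjusted p of these 3 stayed under 0.05 without the mixed cells, and with depth-matched non-cycling cells only Klf4 stayed under it. Spi1, which encodes PU.1, was at 392 against 376 CPM and 339 against 411 CPM (−0.23 ± 0.22, adjusted p = 0.63).

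**Figure D3:**
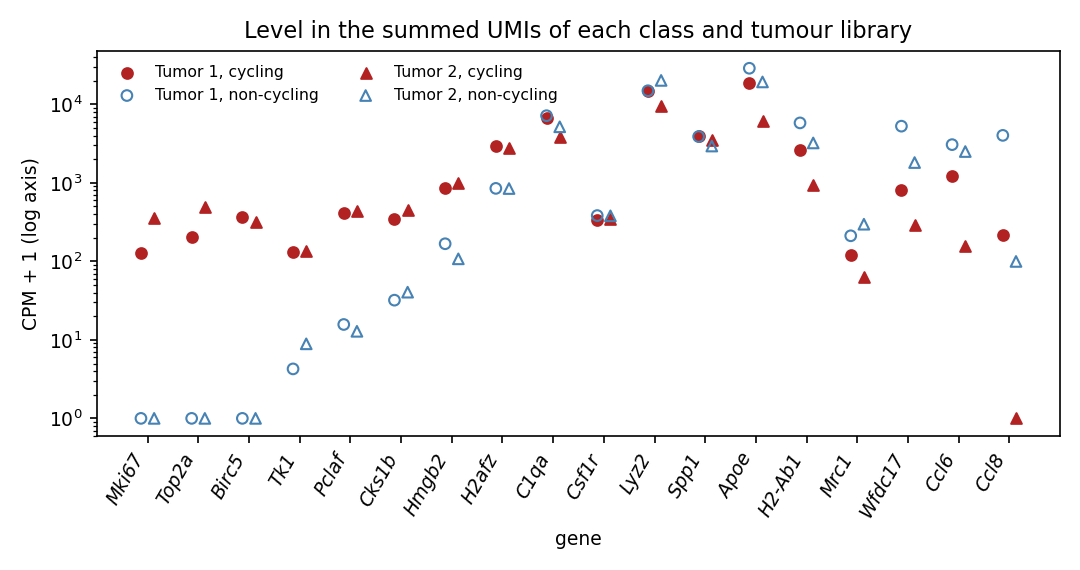
Level of 18 genes (x axis) as CPM + 1 on a log axis (y axis) in the summed UMIs of cycling (filled red) and non-cycling (open blue) cells of Tumor 1 (circles) and Tumor 2 (triangles). Pclaf and Tk1 were higher in both cycling sums, C1qa, Csf1r and Spp1 lay close together, and H2-Ab1, Wfdc17 and Ccl6 were lower in both cycling sums. Mki67, Top2a and Birc5 belong to the rule and are 0 in non-cycling cells by construction.

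Retnla, an alternative-activation marker, led the falls outside the cycle lists. It had 0 and 7 UMIs in cycling cells of Tumor 1 and 2 against 106 and 1037 UMIs in non-cycling cells, or 0 against 173 CPM and 20.8 against 4098 CPM (−7.74 ± 0.40, adjusted p = 2.0e-76, and 2.6e-07 without the mixed cells). Wfdc17, a small secreted protein encoded at chr11:83703991-83706268 (plus strand), stood at 803 against 5274 CPM and 291 against 1814 CPM (−2.81 ± 0.22). The chemokine Ccl8 was at 216 against 4026 CPM in Tumor 1, where 1 cell held 45 of the 65 cycling UMIs, and at 0 against 98.8 CPM in Tumor 2 (−4.50 ± 0.31). Ccl6 was at 1234 against 3069 CPM and 155 against 2505 CPM (−2.62 ± 0.23), and 1 cell held 228 of its 372 UMIs in the cycling cells of Tumor 1. All 4 were lower in both libraries.

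Ltc4s, the leukotriene C4 synthase, fell by 2.64 ± 0.31, Cbr2 by 2.53 ± 0.44 and Ankrd37 by 2.24 ± 0.42. Saa3, an acute-phase protein, had 2 cycling UMIs against 93 non-cycling ones, 34.3-fold lower (9.23 to 287), and Ifitm6 had none against 35, at least 8.60-fold lower against the floor of 3 counts over the group. UMIs of Retnla were unevenly spread among the non-cycling sums, with most of them in Tumor 2, whereas most Ccl8 UMIs were in Tumor 1.

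MHC class II genes, which present antigen to CD4+ T cells, were lower in cycling cells. Of 9 tested, 6 fell and all 9 fold changes were negative (median −1.43). Without the mixed cells 5 fell, with library totals 5 and with DESeq2 3. H2-Ab1, the beta chain of I-A, encoded at chr17:34257689-34269419 (plus strand), stood at 2608 against 5804 CPM in Tumor 1 and 951 against 3225 CPM in Tumor 2 (−1.58 ± 0.21, adjusted p = 5.2e-12, and 0.00026 without the mixed cells). Cd74, the invariant chain, was at 5475 against 9645 CPM and 1965 against 6485 CPM (−1.39 ± 0.21). H2-Aa fell by 1.53 ± 0.21, and the peptide-loading genes H2-DMa and H2-DMb1 by 1.43 ± 0.24 and 1.47 ± 0.24. Of 9 class I genes 1 fell, H2-D1 (−0.72 ± 0.21), and B2m was at 8879 against 10683 CPM and 3867 against 4537 CPM (−0.38 ± 0.21, adjusted p = 0.29).

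Class II UMIs were spread very unevenly over single cells. The sum of H2-Aa, H2-Ab1, H2-Eb1 and Cd74 had a median of 53.0 UMIs per 10000 in cycling cells of Tumor 1 against 61.8 in non-cycling cells, and of 3.19 against 15.6 in Tumor 2. It was 100 or more in 13 of 29 cycling (44.8%) and 40 of 92 non-cycling cells (43.5%) of Tumor 1, nearly the same share, while the upper quartile was 159 against 363. In Tumor 2 it was 100 or more in 4 of 23 (17.4%) and 10 of 30 (33.3%). It was under 10 in 11 of 29 and 17 of 23 cycling cells, against 25 of 92 and 12 of 30 non-cycling cells. Both limits were set after the values were seen. Of the H2-Ab1 UMIs of the cycling cells of Tumor 2, 1 cell held 42.5%.

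**Figure D4:**
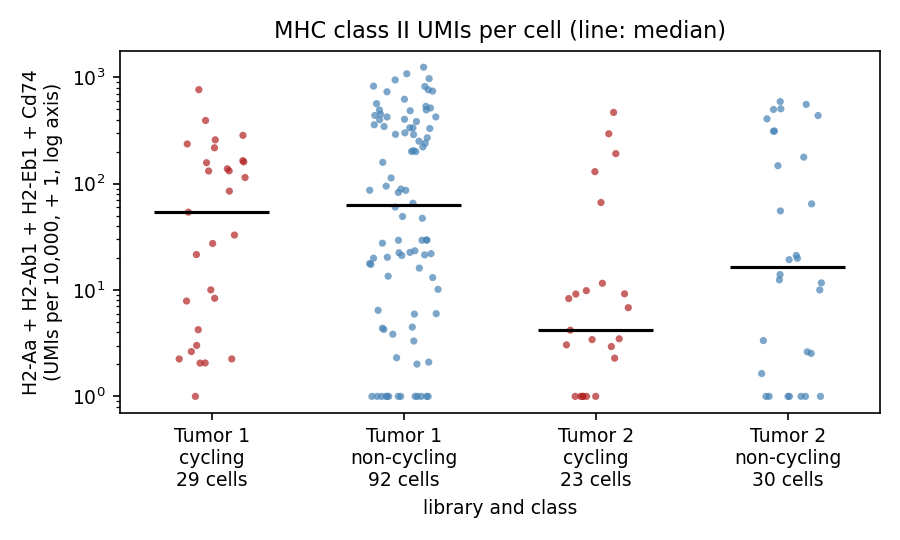
Summed UMIs of H2-Aa, H2-Ab1, H2-Eb1 and Cd74 per 10000 UMIs of a cell (y axis, + 1, log axis) in single cycling (red) and non-cycling (blue) macrophages of the 2 tumour libraries, with a line at each median. Low and high cells occurred in every class, and the medians were 53.0 and 61.8 in Tumor 1 and 3.19 and 15.6 in Tumor 2.

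Genes of lipid-associated macrophages, the lipid-handling state of tumours and fat, were lower in part. Of 19 tested, 10 fell and none rose (median −0.63). Leaving out the mixed cells gave 7 falls, and library totals 5. Apoe, a lipid carrier, was at 18542 against 28836 CPM and 6227 against 19304 CPM (−1.26 ± 0.22), Hmox1, heme oxygenase, fell by 1.47 ± 0.25 and Fabp5, a fatty-acid carrier, by 0.85 ± 0.22. The adjusted p of Trem2, a lipid receptor (−0.63 ± 0.22), was 0.035, and 0.13 without the mixed cells, at −0.54. Mmp12 (−1.56 ± 0.26) had 69 and 2 UMIs in the cycling cells, 42 of the 69 in 1 cell, and without the mixed cells it was at −1.43 (adjusted p = 0.13). Fn1 (−0.66 ± 0.22) was higher in Tumor 1, at 421 against 322 CPM, and lower in Tumor 2, at 892 against 2249 CPM, and without the mixed cells its adjusted p went from 0.027 to 0.058 and its fold change to −0.93. Spp1, osteopontin, a leading gene of tumour macrophages, stood at 3902 against 3887 CPM and 3555 against 2944 CPM (0.01 ± 0.20, adjusted p = 0.99). In DCIS 1 it was at 1753 CPM (108 UMIs) in cycling against 4591 CPM (1866 UMIs) in non-cycling cells.

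Resident-macrophage genes gave 7 falls among 14 tested, with a median of −0.62, and the 1 rise was Sparc. Leaving out the mixed cells gave 6 falls, and library totals 5. Mrc1, the mannose receptor, was at 119 against 211 CPM and 62.4 against 296 CPM (−1.58 ± 0.26), and Folr2, a folate receptor, at 89.6 against 327 CPM and 35.7 against 90.9 CPM (−1.84 ± 0.30). Gas6, a bridging ligand for dying cells, fell by 1.63 ± 0.34, Selenop, a selenium carrier, by 1.34 ± 0.22, Timp2 by 0.83 ± 0.22 and F13a1 by 0.96 ± 0.28. The adjusted p of F13a1 was 0.0082, and 0.052 without the mixed cells, at −0.999. Cx3cr1, the fractalkine receptor, was at 382 against 227 CPM and 743 against 636 CPM (0.35 ± 0.22, adjusted p = 0.39).

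Of the inflammatory and chemokine list 6 of 20 fell and 1 rose, with a median of −0.26. Besides Ccl6 and Ccl8, Ccl9 fell by 0.83 ± 0.21, Il1rn, the antagonist of interleukin-1, by 1.12 ± 0.28 and Il1b by 0.87 ± 0.26. Cxcl2, a neutrophil chemokine (−0.74 ± 0.23), was at 2104 against 2096 CPM in Tumor 1 and 86.2 against 288 CPM in Tumor 2, so the fall lay in Tumor 2. The rise was Ccl12 (1.35 ± 0.23), a ligand of Ccr2, at 896 against 657 CPM and 1430 against 209 CPM. One cell of Tumor 2 held 353 of its 481 UMIs, and without the mixed cells its adjusted p was 0.06 and its fold change 1.46. Without those cells 4 genes of the list fell and none rose, with Il1b at −0.79 (adjusted p = 0.053) and Cxcl2 at −0.60 (0.28).

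Monocyte genes gave 4 falls of 8 tested, Ifitm6, Plac8 (−1.78 ± 0.30), Ccr2 (−0.81 ± 0.26) and Ms4a4c (−0.85 ± 0.28), and without the mixed cells only Plac8 was called. Ms4a4c was lower in Tumor 1, at 216 against 554 CPM, and higher in Tumor 2, at 59.4 against 11.9 CPM. Of the phagocytic receptors and complement genes 6 of 15 fell, among them Cd14, Fcgr3, Fcgr2b, Itgb2 and C4b, by 0.78 to 1.92, and only Cd14 (−1.10 ± 0.22) was called without the mixed cells. With DESeq2 none of the monocyte, phagocytic, growth regulator or class I genes was called, and 1 fall was left in the resident, 2 in the lipid-associated and 2 in the inflammatory list. The interferon list gave 3 falls of 13, Rsad2, Oasl1 and Irf7, and the immediate early and heat shock list 4 of 14, Ier3, Ier2, Fos and Junb. These counts were 0 and 3 without the mixed cells. Of 14 glycolysis genes only Aldoa fell (−0.62 ± 0.21), and was at −0.59 (adjusted p = 0.07) without the mixed cells, while Gapdh was at 1470 against 1534 CPM and 1424 against 1427 CPM. Itgax was the 1 dendritic cell gene tested, and it did not pass (−0.20 ± 0.39, adjusted p = 0.85).

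Cells just inside and just outside the rule were compared by their number of cycle genes. In Tumor 1, Pclaf was at 14.7 CPM in cells with 0 cycle genes, 32.1 CPM with 1, 168 CPM with 2 and 475 CPM with 3 or more, and in Tumor 2 at 11.9, 21.2, 137 and 517 CPM. Cdk1 had no UMI in the 28 and 8 cells with 1 cycle gene. The mitosis list summed to 956 and 593 CPM in cells with 1 cycle gene, against 887 and 925 CPM in cells with none, and to 2311 and 2376 CPM in cells with exactly 2. Wfdc17 was at 5274, 2190, 2479 and 339 CPM in Tumor 1 along the same 4 steps, and at 1814, 3092, 244 and 303 CPM in Tumor 2. Mrc1 was at 211, 69.4, 214 and 93.2 CPM in Tumor 1 and at 296, 84.7, 168 and 36.9 CPM in Tumor 2. Its values with 1 cycle gene rest on 13 and 8 UMIs. An Mrc1 UMI was seen in 4 of 28 and 6 of 8 of those cells, against 32 of 92 and 16 of 30 non-cycling cells. H2-Ab1 was at 5804, 6790, 4040 and 2212 CPM in Tumor 1 and at 3225, 837, 2695 and 528 CPM in Tumor 2. These 3 genes did not follow the number of cycle genes step by step in both libraries. The cells with exactly 2 cycle genes numbered 8 in Tumor 1 and 6 in Tumor 2.

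The cycling cells also differed among themselves in where their cycle UMIs lay. The DNA replication list ranged from 0 to 36.8 UMIs per 10000 in cycling cells of Tumor 1 (median 9.78) and from 0 to 58.4 in Tumor 2 (median 15.6), against medians of 3.17 and 3.08 in non-cycling cells. The mitosis and spindle list ranged from 6.88 to 169 in Tumor 1 (median 49.6) and from 14.5 to 182 in Tumor 2 (median 41.5), against medians of 8.44 and 9.55. The cell with the highest mitotic value, in Tumor 2, had a replication value of 14.9, and the cell with the highest replication value, also in Tumor 2, a mitotic value of 36.5.

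**Figure D5:**
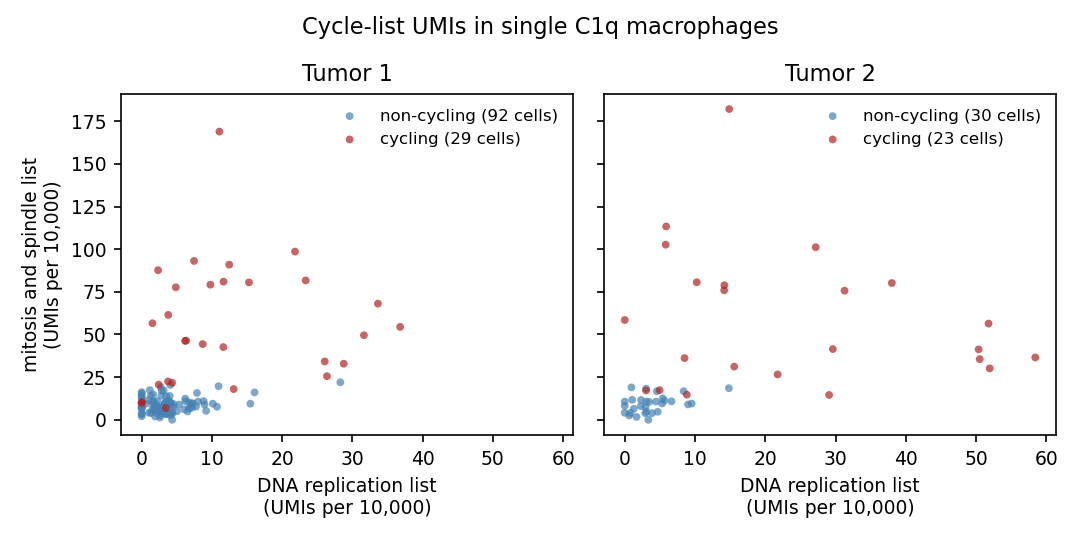
UMIs per 10000 of the DNA replication list (x axis) and of the mitosis and spindle list (y axis) in single macrophages of Tumor 1 and Tumor 2, cycling in red and non-cycling in blue. Cycling cells spread along both axes, up to 58.4 and 182, and the 2 cells with the highest mitotic values, 169 and 182, had replication values of 11.1 and 14.9.

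In the earlier states the cells were too few for a test, and their values are given as counts. The 5 cycling cells of DCIS 1 held 9 Top2a, 8 Mki67, 4 Cdk1 and 5 Ccna2 UMIs, and all 5 had Cd68. The 3 of Prepuberty 1 held 6 Top2a and 4 Mki67 UMIs but only 14 C1qa UMIs, and the single cell of DCIS 2 held 1 Mki67 and 4 C1qa UMIs. H2-Ab1 was at 146 CPM (9 UMIs) in cycling against 1368 CPM (556 UMIs) in non-cycling cells of DCIS 1, the same direction as in the tumours. Wfdc17 was at 4416 CPM (272 UMIs) against 2266 CPM (921 UMIs) there, the opposite direction. Pclaf had 3 UMIs in the 5 cycling and 3 in the 45 non-cycling cells of DCIS 1.

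States could not be compared under the rule of 10 cells. With DCIS 1 admitted at 5 cells, edgeR called 0 of 4662 genes between Tumor and DCIS within cycling cells, with 549 at an unadjusted p under 0.05. Slpi, Saa3 and Ctla2a had the smallest p among lower genes and Ranbp1, Srsf3 and Hnrnpa2b1 among higher ones, none past the threshold. Ranbp1, a partner of Ran, had 0 UMIs in the cycling cells of DCIS 1 against 171 and 272 in those of Tumor 1 and 2. All 6 genes differed in the same direction in the non-cycling cells of these libraries. There Saa3 was at 5193 CPM in DCIS 1 against 103 and 119 CPM in Tumor 1 and 2. Slpi was at 1742 against 29.4 and 3.95 CPM, and Ranbp1 at 29.5 against 239 and 217 CPM. Without the mixed cells 31 genes were higher and 51 lower of 4355, with these 6 among them. The difference between cycling and non-cycling cells itself differed between Tumor and DCIS 1 for 64 of 5816 genes in the higher direction (1.10%) and 17 in the lower (0.292%), and for 40 and 16 of 5120 without the mixed cells. The 6 largest differences in the higher direction were of the matrix genes Fstl1, Dcn, Postn, Col1a2, Aebp1 and Col3a1, each with 0 UMIs in the DCIS 1 cycling cells, and none of the 6 could be tested without the mixed cells. In the lower direction they were Ltc4s (−5.28), the matrix protease Mmp19 (−5.26), the lysozyme gene Lyz1 (−4.85), Ccl6 (−4.47), the phospholipid transfer gene Pltp (−3.89) and Dguok (−3.73), a mitochondrial nucleoside kinase. Their adjusted p stayed under 0.05 without the mixed cells, but the counts were small, as for Mmp19 with 7, 2 and 2 UMIs in the cycling cells of DCIS 1, Tumor 1 and Tumor 2. Both fits rest on 1 DCIS library of 5 cycling cells, which is assumed to vary like the tumour libraries.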

How the data were processed

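The authors made 10x Genomics 3′ libraries and counted them with Cell Ranger 3.0.2 (per the file headers), against a reference to which they added the T antigen sequence. The submitters' processing notes name mm10. The deposited values are unnormalized UMI counts of each of 31055 features in each cell, and 2606 to 4476 kept cells and 29652183 to 60741860 UMIs per library. According to the labels 1 kit version and 1 digestion served every library, but the methods of the study list a later kit for Tumor 2 and a different dissociation for tumours, so state and preparation cannot be told apart.

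Cells were gated on raw counts. UMIs were summed per library and class, since cells are not replicates, and CPM are shares of those sums. Sums were tested with edgeR 4.0.16 (TMM, filterByExpr, glmQLFTest, two-sided), with p-values adjusted by Benjamini-Hochberg over 4135 genes, 11 of them genes of the rule that enter no count. SEs come from the F statistic, and so from the pooled spread of the fit. DESeq2 1.42.0 was an alternative. Doublets were kept; as an alternative the highest Scrublet scores (scanpy 1.11.5) were left out at 0.8% per 1000 cells, which removed no cycling cell. Its automatic threshold marked only 72 cells and was not used. Library pairs shared 8 to 35 barcodes. Counts of the 2 libraries of a state differed beyond sampling noise (chi-square per degree of freedom 5.05 to 9.45).

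Named genes were, outside the cycle lists, the 10 largest rises and falls with 1 sign in both libraries, the 4 most abundant tested genes of each of 5 cycle lists, and from the other lists those called and the 2 most abundant. Between states they were the 6 largest differences each way, or the 3 smallest p where no gene passed. Rfc2 and genes of the mixed cells and of the cycle control list were named after their values were seen. The members and lists were chosen with earlier results of these data known. Some genes that the rule names are not reported here.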

Additional observations from a re-analysis of the deposited data

Results flagged for a closer look

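For 20 of the genes that the class comparison named, the difference between cycling and non-cycling cells differed between Tumor and DCIS 1 (edgeR test of the interaction, adjusted p under 0.05, 5 cycling cells in DCIS 1). The log2 difference in Tumor minus that in DCIS 1 was negative for Wfdc17 (−3.33), Ccl6 (−4.47), Saa3 (−3.71), Fn1 (−2.36), Ltc4s (−5.28), Selenop (−1.66) and Ccl8 (−2.83). It was positive for Sparc (5.80), Hmgb2 (2.76), Ccl12 (2.53), Ms4a4c (3.91), Cd74 (1.86), H2-Ab1 (2.09), H2afz (1.47), H2-Aa (1.88), Ctsl (1.56), Il1rn (2.23), Spp1 (1.84), Cdkn1a (1.99) and Isg15 (2.18). The genes named between states were chosen on the same test and are not counted here. Spp1 and Cdkn1a passed no test in the tumours, and were at 1753 against 4591 CPM and 162 against 709 CPM in cycling and non-cycling cells of DCIS 1. Wfdc17 and Ccl6 were lower in cycling cells of both tumours and higher in those of DCIS 1, while H2-Ab1, H2-Aa and Cd74 were lower in cycling cells of all 3 libraries, with the larger gap in DCIS 1. Without the mixed cells Sparc was too low to be tested, Ctsl had an adjusted p of 0.23 and Il1rn of 0.054 and Isg15 of 0.17, and the other 16 stayed under 0.05. The log2 differences of Ctsl, Il1rn and Isg15 were 1.28, 2.28 and 1.72 without the mixed cells. Groups of 2 libraries are too small for a test of outlying libraries.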

How the results depend on the processing

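Counts of genes higher and lower in cycling cells, 238 and 187, moved with most settings. They were 38 and 19 with DESeq2, 226 and 63 with library totals, and 0 and 0 without the library block. With DCIS 1 added at 5 cells they were 73 and 42, and with 3 or more cycle genes 146 and 85. Leaving out the highest doublet scores (1 cell of the fit) gave 121 and 47. Cells with a T antigen UMI, or with 2 or more UMIs over the 7 genes that mark mixed cells, were left out in another setting. That removed 8 of 29 cycling cells of Tumor 1 and 2 of 23 of Tumor 2, and gave 164 and 88. Depth-matched non-cycling cells gave 137 and 61, and cells thinned to 2500 UMIs 34 and 44 of 1137 genes. Chosen after seeing the data, leaving out the mixed cells gave 148 and 86, and sharing the spread with all non-cycling sums 29 and 1. The estimated prior degrees of freedom were infinite in the main setting, without a filter and with thinned cells, and between 3.91 and 58.6 in the other edgeR settings. Of 85 named called genes, 79 kept their call at a mitochondrial limit of 5%, 61 without the mixed cells, 49 with depth matching, 25 with DESeq2 and 10 with the shared spread. Leaving out 1 tumour library leaves no test. The sign then turned for Ctsl (range −1.26 to 0.011), Cxcl2 (−1.63 to 0.0050), Fn1 (−1.32 to 0.38) and Ms4a4c (−1.32 to 1.67). Fn1 also turned with DCIS 1 added (0.077), and Ms4a4c with DESeq2 (0.18).

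The gap in share between DCIS and Prepuberty ranged from −17.8 to 5.28 percentage points when 1 library was left out, and turned without Prepuberty 1. The gap of Tumor over DCIS ranged from 14.2 to 32.4 points and that over Prepuberty from 5.51 to 28.6 points, the lowest without Tumor 2 and Prepuberty 2, and both kept their direction in every setting. With the replicate block the gap of Tumor over DCIS was the same 23.3 points, and an exact test that flips the signs of 2 pairs cannot give a p under 0.5. Replicate numbers did not pair the libraries (correlations of deviations 0.07 to 0.08 across genes). States within cycling cells and the interaction could not be fitted at 10 cells, so the other alternatives for them were not run, and with the replicate block no residual degree of freedom is left.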
